A study of Mus musculus with 2 samples.

Results

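The distal microRNA cluster of the Dlk1-Dio3 domain was described in 2 newborn mouse hearts. Its members were the microRNA genes of the deposited count tables that GENCODE places on chromosome 12 (build mm10) in a 38.9 kb stretch, from the start of Mir379 at 109709060 to the end of Mir3072 at 109747960. That rule used position and gene type only, and gave 38 of the 1973 genes counted. Both libraries came from hearts of B6NCrl pups at postnatal day 0, with total RNA as the starting material and a size range under 30 nt. Replicate 1 was the single heart of pup 1 and replicate 2 that of pup 3, and the labels list both under the same donor record. There was 1 group and no other condition, and sense-strand gene counts came to 6373797 and 7630427.

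The Dlk1-Dio3 domain is imprinted, so that each of its genes is transcribed mainly from the chromosome of 1 parent. The protein-coding genes Dlk1, Rtl1 and Dio3 are active on the paternal chromosome, and the non-coding RNAs Meg3, Rian and Mirg, with the microRNAs and small nucleolar RNAs among them, on the maternal one. The microRNAs of the distal cluster are found only in placental mammals and are best known from brain, placenta and embryo. A microRNA is cut from a hairpin precursor, and either arm of the hairpin (5p or 3p) can give the mature strand. The seed, bases 2 to 8 of the mature strand, is the part that pairs with target messages.

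Markers of the tissue were read first. The cardiac muscle list of Mir208a, Mir208b and Mir499, all within myosin heavy chain genes, took 12.2% and 12.5% of counts in replicates 1 and 2. The endothelial Mir126a took 14.4% and 12.2%, and Mir143 of smooth muscle 9.14% and 8.51%. The erythroid Mir451a and Mir144 together took 0.104% and 0.131%. The hepatocyte Mir122 stood at 35.8 and 44.6 CPM (counts per 1000000 of the library's sense-strand gene total), and the skeletal muscle Mir206 at 71.2 and 104 CPM. The 4 neuronal genes listed (Mir9-2 and the 3 copies of Mir124a, whose sequences are repeated) were at 0 in both libraries. Mir1a-1, of heart and skeletal muscle, had 64 counts in replicate 1 and 59 in replicate 2, and Mir133a-2 had 14 and 15, values looked up after the other results were known. The tables do not assign multimapping reads to genes, and their part in these low values was not tested. The part of the other cell types in the levels below was not tested.

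The mature strands of the most abundant genes of the cluster are shown first, with the seed in capitals. They and all other sequences here are RefSeq's, on build GRCm38.p6, and are written 5′ to 3′. The counts are per gene, so they do not say which arm was read. The sequences used held no 3p arm for Mir487b.
miR-411-5p: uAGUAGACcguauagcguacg
miR-411-3p: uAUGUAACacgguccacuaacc
miR-379-5p: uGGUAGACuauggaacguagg
miR-379-3p: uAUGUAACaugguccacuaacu
miR-487b-5p: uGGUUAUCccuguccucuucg
miR-381-5p: aGCGAGGUugcccuuuguauauu
miR-381-3p: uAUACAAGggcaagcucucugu
miR-541-5p: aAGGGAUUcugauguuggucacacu
miR-541-3p: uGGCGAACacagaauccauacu
The 3p arms of miR-379 and miR-411, from neighbouring hairpins, had the same seed and shared an unbroken run of 11 nt. Their 5p seeds were not the same.

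At 4 places the tables counted a feature annotated on the minus strand, while the microRNA gene on the plus strand was not among the genes counted. These features were Mir299b (over Mir299a), Gm25750 (over Mir380), Gm25252 (over Mir376a) and Gm24321 (over Mir409). For them the counts on the opposite strand were used, which is the plus strand. The mature strands of the plus-strand genes show what those reads could hold.
miR-299a-5p: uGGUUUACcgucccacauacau
miR-299a-3p: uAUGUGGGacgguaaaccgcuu
miR-380-5p: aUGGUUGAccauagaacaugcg
miR-380-3p: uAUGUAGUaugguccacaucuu
miR-376a-5p: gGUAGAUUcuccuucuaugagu
miR-376a-3p: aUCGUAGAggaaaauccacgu
miR-409-5p: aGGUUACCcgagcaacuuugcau
miR-409-3p: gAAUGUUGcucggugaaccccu

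In those features nearly every read lay on the plus strand. Gm25252 had 5716 counts on the plus strand in replicate 1 and 6122 in replicate 2, with 0 on its own strand in both. Gm24321 had 4662 and 6113 on the plus strand and Gm25750 had 2040 and 2158, also with 0 on their own strands. Mir299b had 4512 and 4647 on the plus strand, beside 4 and 7 on its own. The other 34 members, all annotated on the plus strand, had 0 counts on the opposite strand in both hearts. The 4 features gave 16930 and 19040 counts, which was 19.0% ± 0.505 of the cluster (SD, n = 2).

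Of the 4 loci, the one at Mir299b is nearly the same on both strands, which bears on how firmly its reads can be placed. The Mir299a hairpin and its reverse complement shared an unbroken run of 21 nt. In the other 34 hairpins with a RefSeq sequence this run was 5 to 14 nt long. The mature strands annotated at the locus on the minus strand are these.
miR-299b-5p: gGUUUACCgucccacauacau
miR-299b-3p: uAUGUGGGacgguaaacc
All 21 nt of miR-299b-5p lie within miR-299a-5p, and all 18 nt of miR-299b-3p lie within miR-299a-3p. A read that holds only those bases fits both strands. The tables list reads that matched several places apart from the genes, at 35.9% and 34.6% of all reads. The value at Mir299b is therefore uncertain. It is also one of 13 members whose identifier has another version in GENCODE M21, the annotation used here, than in the tables, which were made with M4.

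Of the counts of replicate 1 the cluster took 1.37%, with a 95% interval of 1.36 to 1.38 by the exact Clopper-Pearson method. Of those of replicate 2 it took 1.34%, with limits of 1.33 and 1.35. The mean was 1.35% ± 0.0239 (SD, n = 2), and the 38 genes summed to 87401 and 102058 counts. These intervals cover counting error only. With the plus-strand members alone the share was 1.10%. Of the 38 members, 33 (86.8%) had 10 or more counts in both hearts, and 362 (18.3%) of all genes counted did. Mir1197, Gm27379 and Mir544 had fewer. Mir654 and Mir453 had 0 in both hearts, which allows up to 0.471 CPM in replicate 1 and 0.393 CPM in replicate 2, the level of 3 counts.

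A few genes carried most of the cluster. Mir411 led at 3192 CPM in replicate 1 and 2959 CPM in replicate 2, and ranked 32 among all genes counted. It gave 22.7% ± 0.818 of the cluster's counts. Mir487b had 1725 and 1708 CPM, and Mir379, the first gene of the cluster, had 1641 and 1614 CPM. Mir381 followed at 1148 and 1031 CPM. These 4 genes kept their order in both hearts, and neighbours among them did not overlap. The 3 highest genes took 47.4% ± 0.617 of the cluster, the 10 highest 86.0% ± 0.146 and the 20 highest 97.5% ± 0.210.

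The next genes lay close together. Gm25252, on the Mir376a strand, had 897 CPM in replicate 1 and 802 in replicate 2. Mir541 had 709 and 925 CPM, and Gm24321, on the Mir409 strand, had 731 and 801. The ranges of these neighbours over the hearts overlapped, so the order from rank 5 to rank 7 was not the same in both. Mir299b, on the Mir299a strand, had 708 and 609 CPM, and Mir369 had 635 and 568. Mir382 had 416 and 470 CPM and closed the top 10, which were the same 10 genes in both hearts.

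Below Mir381, 12 genes had means of 100 CPM or more, counting the 6 just named from Gm25252 to Mir382. The others were lower. Gm25750, on the Mir380 strand, had 320 and 283 CPM and Mir154 had 292 and 290. Mir154 gives its name to a family of related hairpins in this cluster. Mir1193 had 210 and 188 CPM. Mir134, known in neurons for acting on messages in dendrites, had 195 CPM in replicate 1 and 190 in replicate 2. Mir300 had 156 and 158 CPM and Mir329 had 115 and 134.

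Another 15 genes had means from 10 to 100 CPM, of which Mir496a at 101 and 88.5 CPM was the highest. Mir494 had 72.8 and 85.8 CPM and Mir376c had 77.8 and 71.8. In order of mean level the rest were Mir543, Mir667, Mir485, Mir539, Mir323, Mir377, Mir495, Mir410, Mir668, Mir679, Mir412 and Mir666, the last at 16.5 and 12.8 CPM. Mir410 and Mir495, both studied in cardiac muscle, thus stood low in the cluster, at 26.8 and 27.9 CPM and at 24.2 and 30.9 CPM. The 5 lowest with a count were Mir3072 with 55 and 73 counts, Mir758 with 40 and 50, Mir1197 with 6 and 7, Gm27379 with 1 and 3 and Mir544 with 1 and 1. From 1 to 3 counts no order can be read.

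Across the whole cluster the order of levels was similar in both hearts. No gene moved by more than 3 ranks. Of the 37 pairs of neighbours in that order, 22 had ranges that did not overlap between the hearts and 15 did overlap. Among the 22 are Mir1197 over Gm27379 and Mir544 over Mir654, at 0 to 7 counts, from which no firm order can be read. The plot of all members by level shows the steps.

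**Figure D1:**
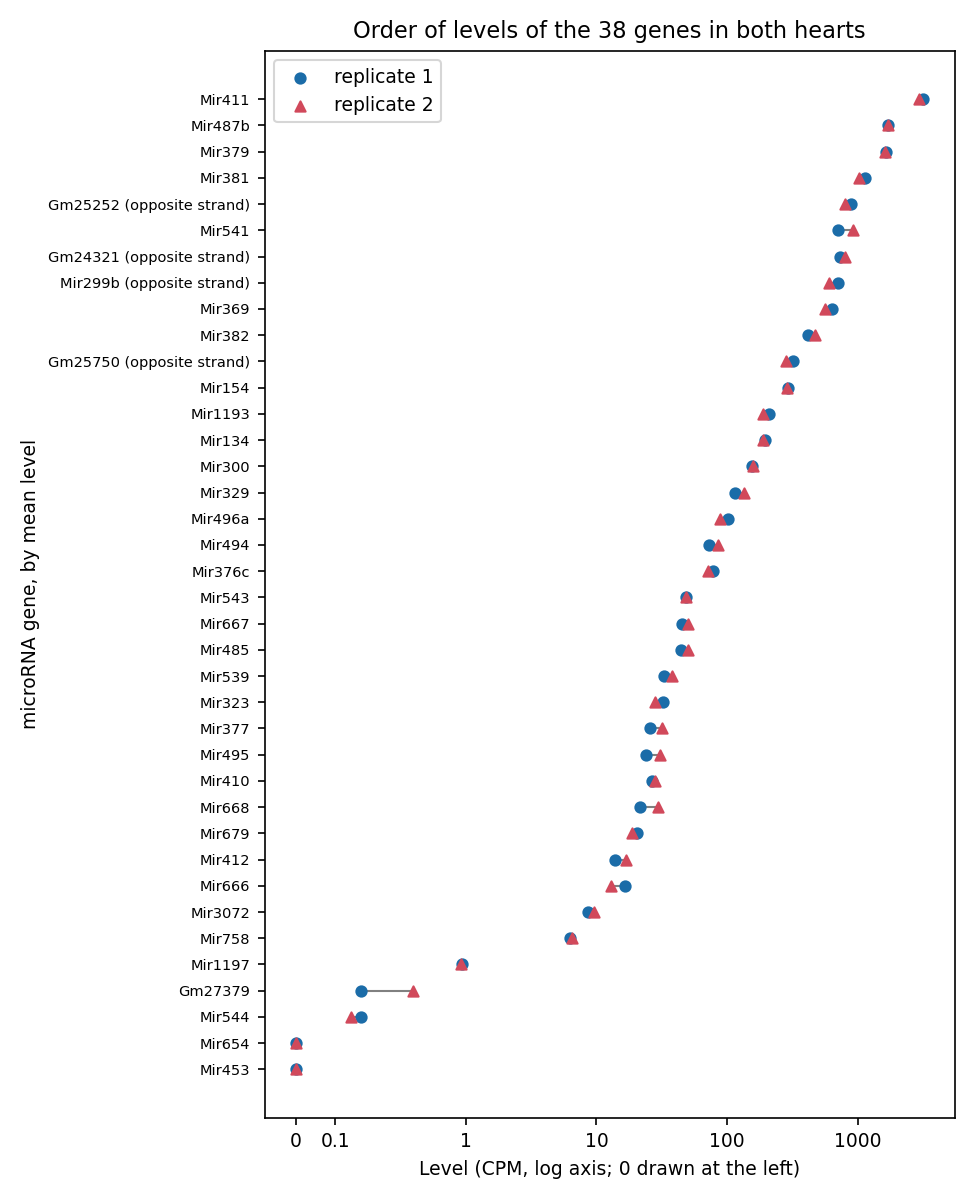
Level of each of the 38 genes in CPM (log axis, 0 drawn at the left), ordered by the mean of the hearts. Circles are replicate 1 and triangles replicate 2, each joined by a line. Mir411 stands alone at 3192 and 2959 CPM, and Mir654 and Mir453 are at 0 in both.

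Levels did not follow the order of the genes along the chromosome. Between position and the mean log2(CPM + 1), the Spearman correlation was -0.13 and the Pearson correlation -0.06 over the 38 members. The members share the same 2 libraries, so these numbers are a description. The first 19 genes had a median of 74.8 CPM and took 54.2% ± 1.57 of the cluster, and the last 19 had a median of 47.2 CPM and took 45.8% ± 1.57. Between adjacent genes the median step in log2(CPM + 1) was 2.43, and between any pair of members it was 3.33. The step was over 3 on that scale in 16 of the 37 adjacent pairs (43.2%) and in 379 of all 703 pairs (53.9%).

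High and low genes both lie at the start of the cluster. Its first genes, Mir379, Mir411, Mir299b and Gm25750, had 283 CPM or more in each heart. The next gene, Mir1197, had 0.941 and 0.917 CPM, and the ratio of Mir411 to it was 3391 in replicate 1 and 3225 in replicate 2. Mir323 then had 32.6 and 28.3 CPM. Mir758 had 6.28 and 6.55 CPM. Mir411 and Mir758 share at least 20 nt of precursor, and the effect of this on their counts was not tested.

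Gaps of more than 2 kb between genes divide the cluster into 6 stretches, a division made after the values were seen. The first, Mir379 to Mir667, holds 15 genes and took 46.2% ± 1.19 of the cluster's counts. The second, Mir376c to Mir300, holds 4 genes of which Gm25252 was the highest, and took 7.98% ± 0.375. The third, Mir381 to Mir544, took 21.2% in replicate 1 and 20.8% in replicate 2, with 5 genes. In it Mir487b exceeded Mir539, the next gene, by 52.6-fold and 45.4-fold.

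Beyond a gap without microRNA genes came the stretches that lie within Mirg. The fourth, Mir382 to Mir453, took 5.24% ± 0.416 with 5 genes. In it Mir382 exceeded Mir485 by 9.35-fold and 9.41-fold. The fifth, Mir154 to Mir410, took 19.5% ± 1.46, and all 8 of its genes had 10 or more counts in both hearts. Mir412, which lies between Gm24321 and Mir369, had 89 counts in replicate 1 and 129 in replicate 2. Those neighbours exceeded it by 52.4-fold and 45.5-fold in replicate 1 and by 47.4-fold and 33.6-fold in replicate 2. Mir3072, alone at the far end, took 0.0672% ± 0.00608.

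**Figure D2:**
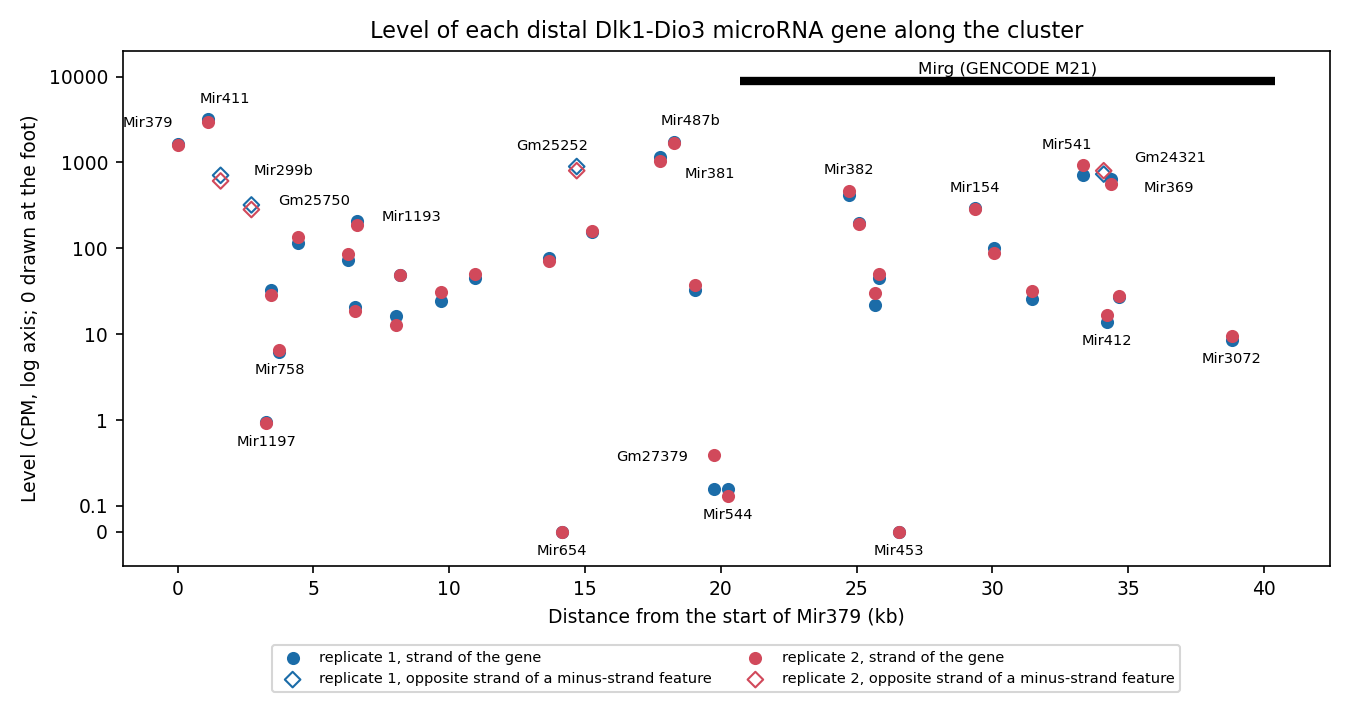
Level of each gene in CPM (log axis, 0 drawn at the foot) against the distance of its start from that of Mir379 in kb. Filled circles are counts on the strand of the gene, open diamonds the opposite strand of the 4 minus-strand features, blue replicate 1 and red replicate 2, and the bar marks Mirg. Mir411, Mir487b and Mir541 stand high, and Mir1197 and Mir412 stand low close to genes over 300 CPM by mean.

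Mirg is annotated from 109729764 to 109749460 on chromosome 12, so 24 of the 38 members lie before its first annotated base. Those 24 took 75.2% ± 1.88 of the cluster's counts, with a median of 61.8 CPM. Another 9 overlap a Mirg exon in at least 1 of its 12 annotated transcripts, with a median of 28.7 CPM and Mir369 as the highest. The remaining 5 lie within the span of Mirg and overlap no exon of any transcript. They had a median of 291 CPM and values from 0 for Mir453 to 817 for Mir541 by mean. The 5 genes outside exons and the 9 exonic genes took 14.6% ± 1.67 and 10.3% ± 0.208 of the cluster.

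The hairpins of the cluster resemble each other, and the seeds were grouped to show how far the mature strands do. RefSeq gave 71 plus-strand arms for 38 genes of the stretch, with 65 seeds. These genes are not the same set as the 38 members. They include Mir376b and the plus-strand genes Mir299a, Mir380, Mir376a and Mir409, and no arm was given for Gm27379. In 6 cases 2 arms of the cluster had the same seed, and all of the groups were pairs. For Mir376c, Mir487b, Mir539, Mir485 and Mir453 the sequences used held a single arm, so further shared seeds could be missed. The arms with a shared seed other than miR-379-3p and miR-411-3p are listed here.
miR-379-5p: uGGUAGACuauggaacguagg
miR-1193-5p: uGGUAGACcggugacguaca
miR-758-5p: uGGUUGACcagagagcacacg
miR-1197-5p: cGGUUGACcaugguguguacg
miR-494-5p: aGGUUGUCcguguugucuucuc
miR-410-5p: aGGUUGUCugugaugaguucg
miR-496a-5p: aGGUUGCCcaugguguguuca
miR-453: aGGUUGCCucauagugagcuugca
miR-376c-5p: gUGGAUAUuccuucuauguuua
miR-376b-5p: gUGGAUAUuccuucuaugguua
Mir376b was not among the genes counted, and shares at least 20 nt of precursor with Mir376c and with Mir487b. The effect of this on the counts of Mir376c and Mir487b was not tested.

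Genes with a shared seed were then compared in level. The ratio of Mir379 to Mir1193 was 7.80 in replicate 1 and 8.59 in replicate 2. Mir411 exceeded Mir379, with which it shares the 3p seed, by 1.94-fold and 1.83-fold, and together they summed to 4833 and 4573 CPM. Mir494 exceeded Mir410 by 2.71-fold and 3.08-fold. Mir758 and Mir1197 were both low, with a sum of 7.22 and 7.47 CPM and ratios of 6.67 and 7.14. Mir496a had 645 and 675 counts, beside 0 for Mir453. The 3p arms of miR-381 and miR-300 have different seeds but share an unbroken run of 16 nt that begins within the seed, and Mir381 exceeded Mir300 by 7.35-fold and 6.53-fold.
miR-300-3p: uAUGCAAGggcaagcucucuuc

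Some seeds also occur elsewhere in the genome. Of the 65 seeds, 10 were found in RefSeq microRNAs outside the cluster. They include the miR-495-3p seed in miR-1192, the miR-329-3p seed in miR-362-3p, and the miR-410-3p seed in miR-344d-3p and miR-344e-3p.
miR-495-3p: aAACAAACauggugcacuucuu
miR-329-3p: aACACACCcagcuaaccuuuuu
miR-410-3p: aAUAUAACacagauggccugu
The seeds of miR-379-5p, miR-411-3p and miR-381-3p were found in no RefSeq microRNA outside the cluster, and that of miR-411-5p was found in miR-7229-5p.

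Short runs were shared too. The run GGUUG, searched in the mature RNA as listed, was in 12 of 71 arms (16.9%) of the cluster and in 3.16% of all 1738 arms of RefSeq. It began at base 2 to base 11, in arms from 12 genes that ranged from Mir453 at 0 to Mir381. The run UACUUG was in 10 of 36 cluster hairpins (27.8%) and in 2.59% of 1005 hairpins overall. Both runs were chosen after the sequences were seen and the cluster is part of each total. Among first bases, U opened 30 arms (42.3%, against 41.3% overall) and A opened 27 (against 25.5% overall). Across members, GC content of the precursor ran from 29.1% in Mir376c to 72.3% in Mir3072, and its Spearman correlation with level was -0.36, again as a description over 38 genes of the same 2 libraries. Precursors as annotated were 49 to 123 nt long. For the 4 minus-strand features, GC content and length were those of the annotated feature and not of the plus-strand hairpin. Mir299b, for example, is 49 nt long and the Mir299a hairpin 63 nt.

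The hearts were then compared gene by gene. A 2-sided exact binomial test given the library totals was run on 438 genes, those whose counts in both hearts summed to at least 10. The p-values were adjusted by Benjamini and Hochberg's method over all of them, at a threshold of 0.05. It compares 2 libraries of 1 group, and sampling noise is the only error it holds. Each heart gave a single library, so animal and library preparation cannot be told apart. Of all genes tested, 31.7% passed. Of the 34 members tested 14 (41.2%) passed and 20 did not. Passing depends on depth, and among genes with 100 or more counts together 14 of 32 members (43.8%) and 136 of 279 genes (48.7%) passed. The median log2 ratio of replicate 2 over replicate 1 was -0.01 over the members tested and 0.02 over all genes tested. The median absolute log2 ratio was 0.16 and 0.21.

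By the exact binomial test 6 members were higher in replicate 2, which was 17.6% of those tested beside 19.2% of all genes. Mir541 showed the widest gap in counts, with 4521 in replicate 1 and 7056 in replicate 2, a ratio of 1.30-fold (adjusted p = 1.74e-43). Mir668 had the largest ratio, 1.38-fold, from 138 and 228 counts (exact binomial test, adjusted p = 0.00985). Mir382 was 1.13-fold higher, from 2654 and 3585 counts. Gm24321, on the Mir409 strand, was 1.10-fold higher. Mir329 (730 and 1025 counts) and Mir494 (464 and 655 counts) were 1.17-fold and 1.18-fold higher.

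The test placed 8 members higher in replicate 1, 23.5% of those tested beside 12.6% of all genes. Neither this share nor that for replicate 2 was matched for depth, on which passing depends. Mir411 was 1.08-fold higher in that heart (exact binomial test, adjusted p = 3.80e-14) and Mir381 was 1.11-fold higher. Of the minus-strand features, Mir299b was 1.16-fold, Gm25750 1.13-fold and Gm25252 1.12-fold higher. Mir1193 was 1.12-fold higher, from 1341 and 1433 counts. Mir369 was 1.12-fold higher and Mir496a 1.14-fold (exact binomial test, adjusted p = 0.0473). All 14 ratios lay between 1.08-fold and 1.38-fold.

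Missing the threshold does not show equal levels. Mir487b had a ratio of 1.01-fold, Mir379 of 1.02-fold and Mir154 of 1.01-fold. Mir495 had a ratio of 1.28-fold from 154 and 236 counts (exact binomial test, adjusted p = 0.0528), and passed only with a minimum of 100 counts. With edgeR's exact test and a biological coefficient of variation set to 0.1, 0 of the members passed, and 0 had an unadjusted p under 0.05.

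**Figure D3:**
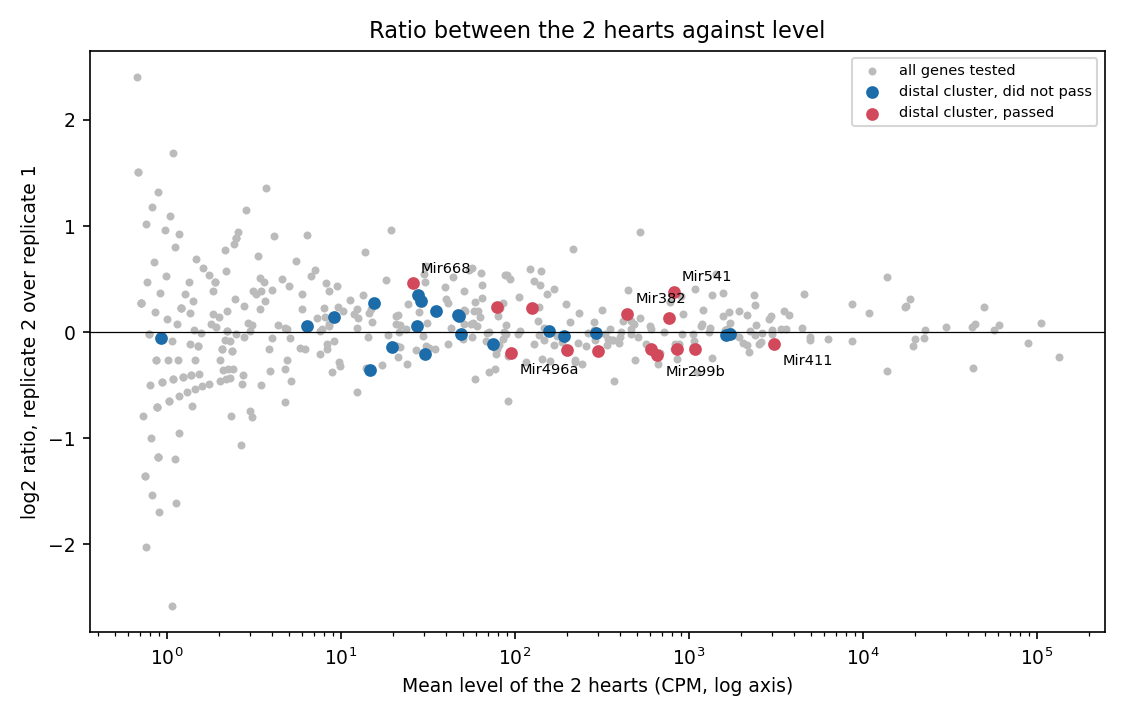
Log2 ratio of replicate 2 over replicate 1 against the mean level in CPM (log axis), for the 438 genes with 10 or more counts together. Grey points are all genes, blue points members that did not pass the exact binomial test and red points the 14 that did. Red points lie on both sides of 0, from Mir668 at 0.46 to Mir299b at -0.22.

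The cluster was set beside the other microRNAs of the same domain. The proximal list was the 20 microRNA genes counted between Dlk1 and Mir379, from Mir1906-1 to Mir882, which lie around Meg3, Rtl1 and Rian. Their 5 highest were Mir127 at 1710 CPM in replicate 1 and 1723 CPM in replicate 2, Mir431 at 918 and 906, Mir434 at 872 and 778, Mir337 at 346 and 354, and Mir433 at 274 and 294. Mir127, Mir431, Mir434 and Mir433 lie opposite Rtl1. The proximal list took 0.470% ± 0.00318 of all counts, and the ratio of distal to proximal counts was 2.91 in replicate 1 and 2.86 in replicate 2.

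The lists were also compared by gene. The proximal list had 14 of 20 genes with 10 or more counts in both hearts and 4 at 0 in both, where the distal cluster had 33 of 38 and 2. The median of log2(CPM + 1) was 5.93 ± 0.00572 in the distal cluster and 5.32 ± 0.233 in the proximal list (SD, n = 2), a difference of 0.60 ± 0.227. Over the genes with 10 or more counts in both hearts the difference was -0.21, an alternative chosen after the data were seen. Mir3071, in the proximal list, is annotated on the minus strand under another identifier version than in the tables, and overlaps Mir136, which was not among the genes counted. Its sense column was used, with 1228 and 1374 counts beside 0 and 1 in the other, and its strand in the annotation of the tables is not known here, so these reads may come from either strand of the locus. Without Mir3071 the difference was 0.97. Between hearts 4 of 15 proximal genes tested passed, 3 of them higher in replicate 2.

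**Figure D4:**
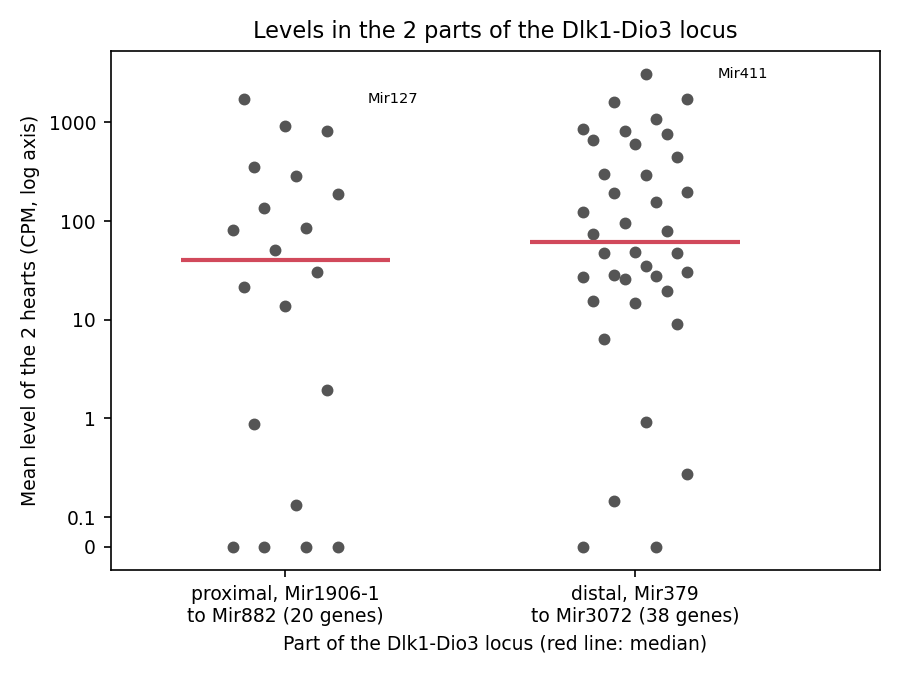
Mean level of the hearts in CPM (log axis, 0 drawn at the foot) for the 20 proximal and 38 distal microRNA genes of the domain, with 1 point per gene and a red line at the median. Both lists reach down to 0, and the medians of the means are 40.6 and 61.8 CPM.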

How the data were processed

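The authors deposited whole-number read counts per gene, without normalization, with 1 table per heart. The authors worked on build mm10 with GENCODE M4 and made each table from 1 alignment, per the readme texts deposited beside the counts. For the aligner, the counter and trimming, the tools were not given in the sources used here. Which deposited count column holds the gene's strand was read from the values. Rows that name no gene, 50.5% and 52.4% of reads, were left out. At this depth 3 counts are 0.471 and 0.393 CPM.

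Positions came from GENCODE M21 on the same build, which matched 1894 of 1973 identifiers. CPM used the sense-strand total of each library, and sharing of 20 nt was searched among all annotated precursors. The members and lists were chosen with earlier results of these data known. All members are named, with values for those at 100 CPM or more, the lowest 5 with a count, those that differed between hearts, minus-strand features and seed groups, plus the 5 highest proximal genes. Log2 ratios between hearts and their folds used 0.5 added counts. The exact binomial test was tested on simulated counts that held sampling noise only, with no variation between animals or preparations. Alternatives covered strand, scaling (edgeR TMM, DESeq2 size factors), count minimum, pseudocount, thinning to the smaller library, a preset spread and each library alone. Tools were edgeR 4.0.16 and DESeq2 1.42.0 in R 4.3.3, and SciPy 1.17.1, NumPy 2.4.6, matplotlib 3.10.9 and pandas 2.3.3 in Python 3.11.15.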

Additional observations from a re-analysis of the deposited data

Results flagged for a closer look

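Reads on the strand not used were above the level of 3 counts at 1 member. Mir299b had 4 counts on its own minus strand in replicate 1 and 7 in replicate 2. There are no control samples to set them against.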

How the results depend on the processing

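The share of counts taken by the cluster, 1.35%, was 1.26% with counts of both strands, 1.10% with plus-strand members only, 0.867% without the 4 members that share 20 nt, and 1.56% with the most abundant gene left out of the total. With the opposite-strand counts added to the total it was 1.35%, and each library alone gave 1.34% to 1.37%. The median member level, 60.9 CPM, was 56.6 CPM with counts of both strands, and 60.9 to 61.0 with each library alone. The correlation of level with position, -0.13, was -0.0743 with plus-strand members only, and -0.11 to -0.13 with each library alone. The difference between distal and proximal medians, 0.60, was -0.21 over genes with 10 or more counts in both hearts and 0.97 without Mir3071, both chosen after the data were seen, and 0.44 to 0.76 with each library alone.

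With 10 as the minimum 33 members were detected in both hearts, with 1 it was 36, with 5 it was 34 and with 100 it was 29. The 14 calls between hearts were the same genes with TMM factors, DESeq2 size factors and counts of both strands. Without a count minimum Mir496a was lost, with thinning Mir668 was lost, and with a minimum of 100 counts Mir495 was gained. With edgeR's exact test at a preset coefficient of variation of 0.1, 0 members and 1 gene in all passed (0 members and 29 genes at an unadjusted p under 0.05). At 0.2 it was 0 and 0 (0 and 4 unadjusted), so 0 members were higher in replicate 2 and 0 in replicate 1 at both presets. No test between hearts is possible with 1 library left out. No paired analysis was possible because there is 1 group. Depth limits the 5 members under 10 counts in a heart.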

Other observations

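The ratios between hearts were not spread evenly along the cluster, a pattern noticed in the data and not tested. Of the 6 members higher in replicate 2 by the exact binomial test, 4 lie within Mirg (Mir382, Mir668, Mir541 and Gm24321), and of the 8 higher in replicate 1, 6 lie before it. Before Mirg lie 20 of the 33 members with 10 or more counts in both hearts, and within it 13. With edgeR's exact test at a preset coefficient of variation of 0.1, 0 members passed. The median log2 ratio of replicate 2 over replicate 1 was 0.15 over the 13 members within Mirg that had 10 or more counts in both hearts, and -0.07 over the 20 before it. The members within Mirg took 23.5% of the cluster's counts in replicate 1 and 26.1% in replicate 2. That share includes Mir541, which had 4521 counts in replicate 1 and 7056 in replicate 2. The log2 ratio was above 0 in 9 of the 13 members within Mirg and in 7 of the 20 before it. Over those 33 members the Spearman correlation of the ratio with position was 0.38, and with GC content of the annotated precursor or feature -0.10. They share the same 2 libraries, and with 1 library per heart animals and preparations cannot be told apart.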
